A study of Mus musculus with 2 samples.

Results

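Small leucine-rich proteoglycans are secreted matrix proteins with a short chain of leucine-rich repeats, most of which carry glycosaminoglycan chains. The account covers 6 genes of this family, chosen by symbol: Dcn (decorin), Bgn (biglycan), Lum (lumican), Ogn (osteoglycin), Prelp (proline and arginine rich end leucine rich repeat protein) and Fmod (fibromodulin). All 6 occur once among the 32285 gene rows of the files. They were measured in non-parenchymal cells, the liver cells other than hepatocytes, from Mfap2+/+ mice (WT) and Mfap2-/- mice (KO). Mfap2 encodes a glycoprotein of extracellular microfibrils. Mice of both genotypes had received intraperitoneal carbon tetrachloride (CCl4), a hepatotoxin that causes fibrosis, for 8 weeks, and no untreated liver was analysed here. Each genotype has 1 library, so genotype and library cannot be told apart, and the age, sex, strain and number of animals behind each are not given in the sources used here.

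In fibrotic liver the proteins of this family coat collagen fibrils made by hepatic stellate cells and fibroblasts. Decorin binds collagen and transforming growth factor beta, biglycan in its soluble form signals through Toll-like receptors, and lumican, fibromodulin and osteoglycin bind fibrils and shape their assembly. Prelp links collagen to basement membrane proteoglycans.

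Expression was counted in UMIs (unique molecular identifiers), each standing for 1 captured RNA molecule. The WT library held 11783 barcodes and 82499307 UMIs (median 4685 per barcode), and the KO library 12872 barcodes and 118226367 UMIs (median 6511). After filtering, 10336 WT and 11428 KO cells were kept, of which 3062 and 3430 took no class. The libraries shared 40 barcode sequences. Mfap2 had 211 UMIs in the kept WT cells and 2 in the KO cells. Cells were placed in classes by 8 marker genes each, with at least 3 markers detected and at least 2 more than of any other class. The mesenchymal-like class, defined by collagen and stellate cell markers, held 174 cells in each library (1.68% and 1.52%), with medians of 12647.5 and 14053 UMIs. These cells carried a median of 8 of the 8 mesenchymal markers and 4 markers of the best other class. At the border of the gate, 41 WT and 53 KO cells passed with the smallest allowed margin. Of them all, 163 WT and 160 KO cells were stellate-like, 4 and 2 portal fibroblast-like, 1 and 0 smooth muscle-like, and 6 and 12 without a subtype. No cell in either library took the mesothelial class.

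The genes lie at 4 places of the mouse genome (GRCm38, GENCODE M21). Dcn (chr10:97479609-97518143, forward strand) and Lum (chr10:97565128-97572703, forward) are neighbours 46985 bp apart, followed by the related genes Kera and Epyc. Ogn (chr13:49608046-49624501, forward) follows its relatives Ecm2, Aspn and Omd and lies within Cenpp on the other strand, with no shared exon. Prelp (chr1:133910304-133921414, reverse) lies 2305 bp from the related gene Optc, and its exons overlap the antisense gene Gm15851. Whether reads were assigned by strand is not given in the sources used here, so Prelp counts are uncertain to that extent. Fmod (chr1:134037254-134048277, forward) is 115840 bp from Prelp, and Bgn lies alone at chrX:73483602-73495933 (forward).

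RefSeq promoter windows of GRCm38.p6 matched 4 of the 6 genes (Bgn, Ogn, Prelp and Fmod). The 250 bases before the RefSeq start are shown for Bgn and Ogn, because Bgn was among the genes lower in the KO library while Ogn had nearly equal levels, and because their base composition differs most of the 4. Capitals mark matches to the GC box GGGCGG (in Bgn, on the reverse strand) and to TATAAA on either strand (in Ogn, 2 overlapping matches). The Bgn window is chrX:73483351-73483600 and the Ogn window chr13:49607765-49608014, both on the forward strand.
Bgn: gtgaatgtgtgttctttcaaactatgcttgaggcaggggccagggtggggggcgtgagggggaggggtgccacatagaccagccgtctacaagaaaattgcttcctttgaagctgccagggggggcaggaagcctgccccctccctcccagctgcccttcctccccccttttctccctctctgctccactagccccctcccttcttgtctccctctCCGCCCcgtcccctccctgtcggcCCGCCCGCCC
Ogn: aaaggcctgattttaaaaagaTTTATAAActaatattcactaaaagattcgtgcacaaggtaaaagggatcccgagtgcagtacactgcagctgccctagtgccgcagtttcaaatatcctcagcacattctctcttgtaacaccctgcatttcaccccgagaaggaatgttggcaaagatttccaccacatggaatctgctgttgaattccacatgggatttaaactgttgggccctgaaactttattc
The Bgn window is 64.4% G or C, with GC box matches 34, 10 and 6 bases before the start. The Ogn window is 42% G or C, with TATAAA matches 229 and 227 bases before the start. The Prelp and Fmod windows are 55.6% and 51.2% G or C and have no match to either motif, and the median over all windows is 52.4%. Of 32851 windows, 32.7% hold GGGCGG and 12.4% hold TATAAA on either strand. The letters TGANTCA (AP-1, 6.75% of windows) and CAGACA (SMAD, 17.1%) occur in none of the 4 windows, while CANNTG (E-box, 66.2%) occurs in Bgn, Ogn and Fmod. A missing match says only that these letters are not in the window.

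All 6 genes had their highest level in mesenchymal-like cells in both libraries, among the 12 classes with at least 20 cells in each. Levels are given as CPM, the sum of a gene's UMIs in a class scaled to 1000000 UMIs of that class, and ratios as the log2 of KO over WT. Summed over the 6 genes, the mesenchymal-like cells carried 15922 CPM in WT and 9459 CPM in KO, which is 1.59% and 0.946% of all their UMIs. These cells held 65.4% (WT) and 61.5% (KO) of all UMIs of the 6 genes in the kept cells. With no doublets removed, the shares were 54.6% and 50.4%. Levels in CPM are 3′ tag counts, and each gene is compared across cells and libraries. Whether the genes are captured equally well was not tested, so their order of level is not read as a result.

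**Figure D1:**
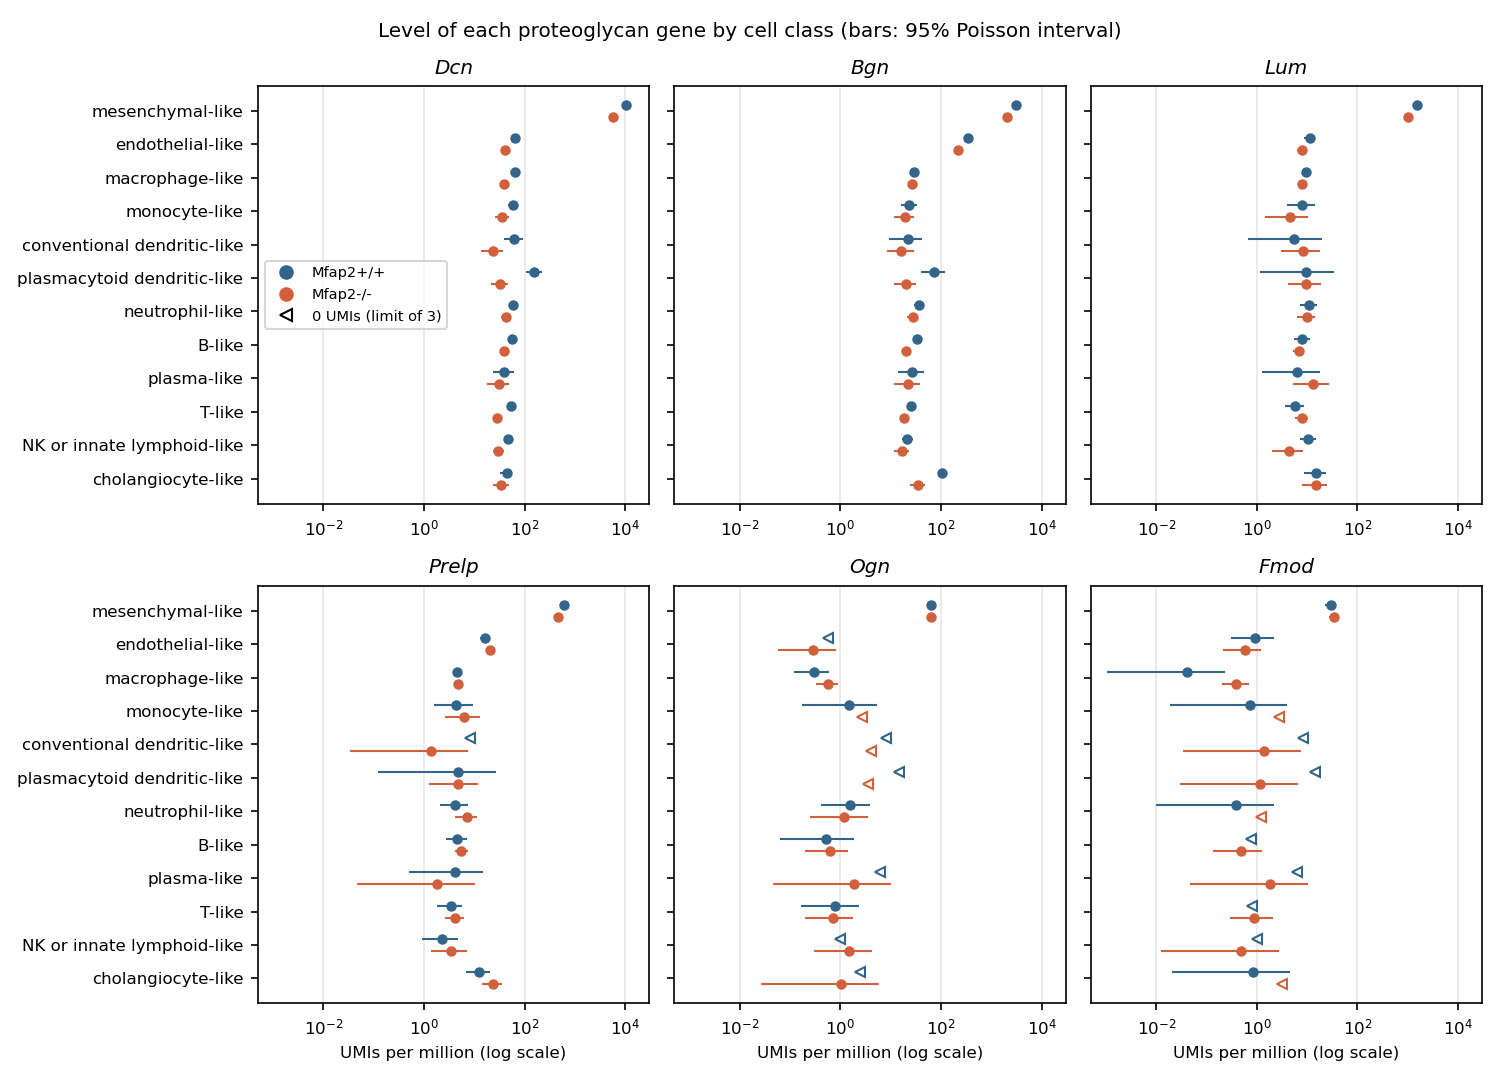
CPM of each gene (log axis) in 12 cell classes, WT and KO; bars are 95% Poisson intervals for counting error, and open triangles stand for 0 UMIs at the limit that 3 UMIs would set. Mesenchymal-like cells are highest for every gene, and Bgn also stands out in endothelial-like cells (337 and 216 CPM).

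Dcn, the collagen-binding decorin, was at 10588 CPM in WT mesenchymal-like cells (95% interval 10451 to 10726, which like all intervals here covers counting error only) and at 5853 CPM in KO. The KO level was 1.81-fold lower (log2 ratio -0.86, interval -0.89 to -0.83). Per cell the median was 105 Dcn UMIs per 10000 UMIs in WT (quartiles 65.0 and 147) and 49.0 in KO (quartiles 27.3 and 80.9). The 2 distributions overlapped, but 149 of the 174 KO cells (85.6%) lay below the WT median and 113 (64.9%) below the lower WT quartile. Within stellate-like cells alone the levels were 10889 and 5983 CPM.

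Bgn, which encodes the Toll-like receptor ligand biglycan, was at 3092 CPM in WT and 2022 CPM in KO mesenchymal-like cells. The ratio was 1.53-fold lower in KO (log2 -0.61, interval -0.67 to -0.56). The per-cell medians were 28.0 and 15.3 UMIs per 10000, and 137 KO cells (78.7%) lay below the WT median. Lum, the fibril-spacing lumican, was at 1547 CPM in WT and 1024 CPM in KO (log2 -0.60, interval -0.67 to -0.52). Its per-cell medians were 12.3 and 7.05, with 126 KO cells (72.4%) below the WT median.

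Prelp was at 604 CPM in WT and 463 CPM in KO (log2 -0.38, interval -0.50 to -0.27), short of 1.5-fold. Its per-cell medians were 5.55 and 4.24 UMIs per 10000, and 117 KO cells (67.2%) were below the WT median. Ogn was at 62.1 CPM in WT (134 UMIs) and 62.3 CPM in KO (157 UMIs), a log2 ratio of 0.00 (interval -0.34 to 0.35). Fmod, which binds collagen and guides its crosslinking, was at 29.7 CPM (64 UMIs) and 34.2 CPM (86 UMIs), a log2 ratio of 0.20 (interval -0.28 to 0.69). Both intervals hold 0.

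**Figure D2:**
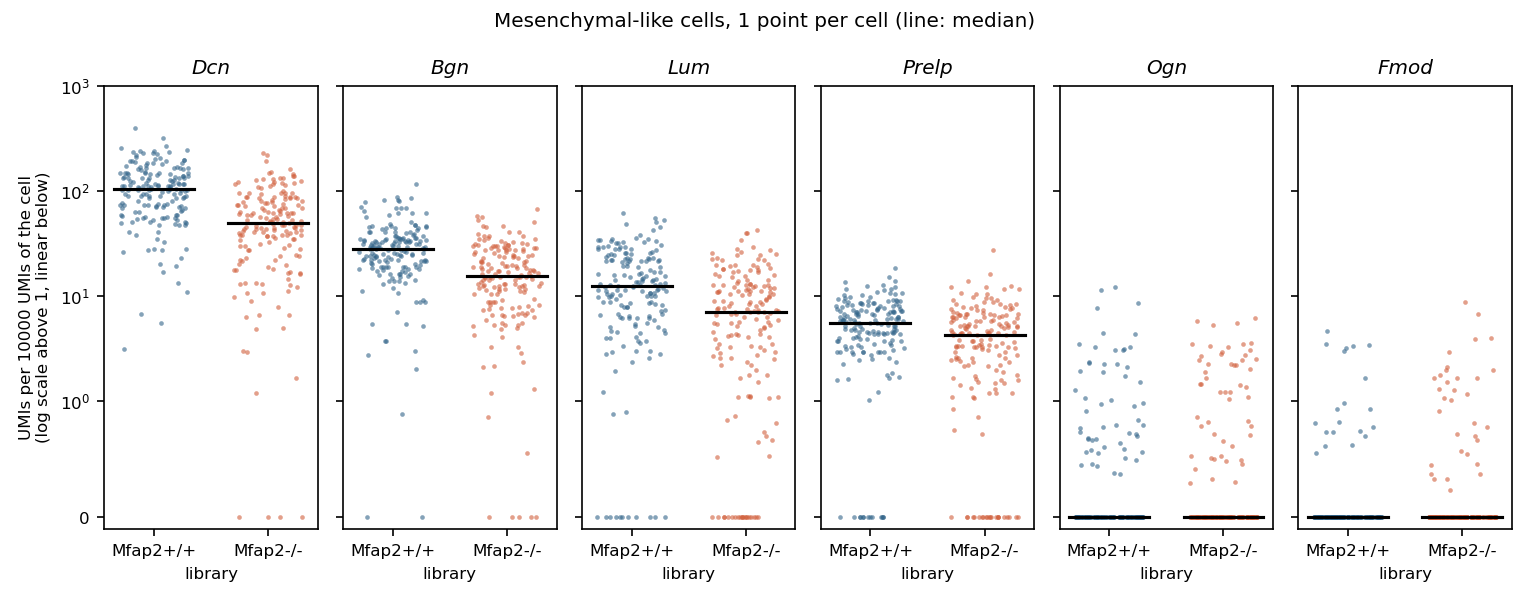
UMIs of each gene per 10000 UMIs of the cell in the 174 WT and 174 KO mesenchymal-like cells, 1 point per cell, with the median as a line; the axis is logarithmic above 1 and linear below. The KO cells sit lower for Dcn (medians 105 and 49.0), Bgn, Lum and Prelp, while most cells are at 0 for Ogn and Fmod.

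Of the 6 genes, 3 (Dcn, Bgn and Lum) were lower in KO by at least 1.5-fold and 0 were higher. Among all 11599 genes with at least 20 UMIs in these cells, 10.1% were lower and 18.9% higher by that fold. The median log2 ratio was -0.49 over the 6 genes and 0.13 over all genes. With libraries scaled by the median of ratios, which removes that shift of 0.13, the log2 ratios were -0.99 for Dcn, -0.74 for Bgn, -0.73 for Lum, -0.51 for Prelp, -0.13 for Ogn, which changes sign, and 0.07 for Fmod. Under that scaling the same 3 genes were past 1.5-fold lower, beside 15.7% lower and 12.8% higher among all genes. Bgn and Lum lay close to the 1.5-fold line: with no doublets removed (203 and 207 cells) only Dcn stayed past it, at -0.87, with Bgn and Lum both at -0.56.

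**Figure D3:**
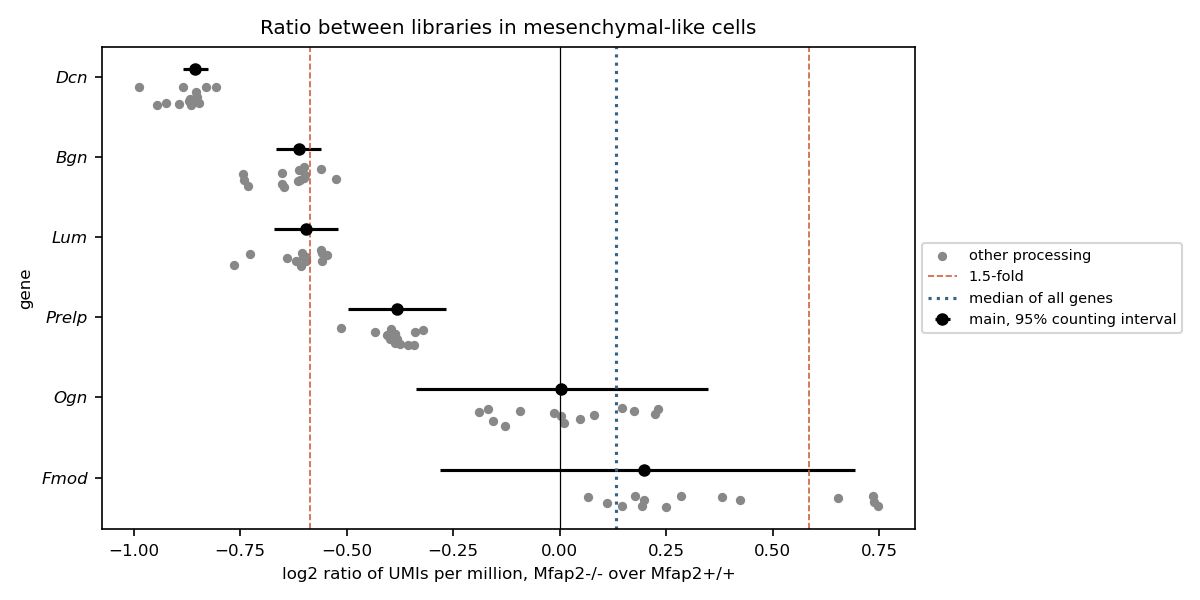
Log2 ratio of CPM (KO over WT) in mesenchymal-like cells; black points with bars are the main values with 95% counting intervals, grey points the 14 processing alternatives, dashed lines 1.5-fold and the dotted line the median of all genes (0.13). Dcn is past 1.5-fold lower under each alternative, Bgn and Lum scatter around the line, and Fmod ranges from 0.07 to 0.75.

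Without any gate, over all kept cells, the same 4 genes were lower in KO. Dcn was at 450 CPM in WT and 214 CPM in KO (log2 -1.07), Bgn at 193 and 112 (-0.79), Lum at 69.5 and 39.6 (-0.81) and Prelp at 28.9 and 21.8 (-0.41). Ogn was at 3.16 and 2.67 CPM and Fmod at 1.66 and 1.67 CPM. Over all cells, fewer mesenchymal cells and less RNA per cell cannot be told apart. Cells led by mesenchymal markers that missed the gate (45 WT and 51 KO) had Dcn at 6548 and 2751 CPM and Bgn at 2796 and 1086 CPM.

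Leukocyte classes, which are not known for making these proteins, also held some of their UMIs, and this level is the background for the values above. In B-, T-, NK- and neutrophil-like cells Dcn lay between 47.4 and 58.2 CPM in WT and between 28.8 and 42.2 CPM in KO, so this background was also lower in KO for Dcn. In macrophage-like cells Dcn was at 64.6 and 39.2 CPM. Bgn lay between 21.6 and 35.8 CPM (WT) and between 16.5 and 27.6 CPM (KO) in the 4 leukocyte classes. Its level was lower in KO in all 4, with an interval of the ratio below 0 in B- and T-like cells. In macrophage-like cells Bgn was at 29.1 and 26.7 CPM (699 and 817 UMIs). Its log2 ratio there was -0.13, with an interval that holds 0 (-0.27 to 0.02). In the 4 leukocyte classes Lum lay between 5.76 and 10.8 CPM (WT) and between 4.38 and 9.87 CPM (KO). Prelp lay between 2.32 and 4.64 CPM (WT) and between 3.40 and 7.10 CPM (KO). The Prelp values were higher in KO, but the interval of the ratio holds 0 in all 4 classes, so no direction is read from them. The mesenchymal level was 184-fold (WT) and 147-fold (KO) that of B-like cells for Dcn, 92.3- and 100-fold for Bgn, 194- and 150-fold for Lum, and 130- and 83.2-fold for Prelp. Markers of other classes were detected in the mesenchymal-like cells too. The 8 macrophage markers, all detected, summed to 761 CPM in WT and 846 CPM in KO, against 11234 and 9803 CPM in macrophage-like cells. The 8 endothelial markers summed to 555 and 591 CPM, of which Eng made up 322 and 384 CPM. Pecam1 was at 97.8 and 67.9 CPM, Egfl7 at 47.8 and 27.4, Ptprb at 35.2 and 51.6, and Stab2 at 33.8 and 41.7. Pecam1 was found in 36.2% and 42.5% of the mesenchymal-like cells and Stab2 in 28.7% and 46.0%. Cdh5 was at 12.5 and 7.15 CPM, Kdr at 5.56 and 9.13, and Tie1 at 0 and 1.59. The plasmacytoid dendritic list summed to 751 and 915 CPM, of which Tcf4 made up 691 and 804 CPM, with its markers Siglech, Klk1 and Cox6a2 at 0 in WT and Klk1 and Spib at 0 in KO, and the remaining lists stayed at or below 258 CPM in WT and 272 CPM in KO. In the B list Ebf1 made up 94.1 of 163 CPM in WT and 194 of 272 CPM in KO. Ighm was at 45.4 and 46.9 CPM, in 41.4% and 48.3% of the cells, and Cd79a at 8.81 and 13.5 CPM. The part of these markers of other classes in the ratios was not tested.

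The share of mesenchymal-like cells with at least 1 UMI was 100% (WT) and 97.7% (KO) for Dcn, 98.9% and 97.1% for Bgn, 93.7% and 88.5% for Lum, 92.5% and 87.4% for Prelp, 31.6% and 30.5% for Ogn, and 11.5% and 19.0% for Fmod. At an equal depth of 2000 UMIs per cell (159 WT and 162 KO cells, with 15 and 12 shallower cells left out), Lum was detected in 79.2% of WT and 65.4% of KO cells. Prelp was detected in 69.8% and 54.9%, Bgn in 96.9% and 90.7%, and Dcn in 99.4% and 95.1%. Ogn (10.7% and 10.5%) and Fmod (5.03% and 7.41%) were near the level of 1 UMI at that depth, and no order is read from them. In B-like cells (median 3456 and 4822 UMIs) at the same depth, Dcn was found in 10.4% and 7.71% of cells, Bgn in 6.52% and 4.08%, Lum in 1.22% and 1.43%, and Prelp in 0.815% and 1.10%. Most mesenchymal-like cells carried several of the genes at once: 93 WT and 77 KO cells had UMIs of 4 of them, and 11 and 14 cells of all 6.

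The 4 genes with most UMIs, Dcn, Bgn, Lum and Prelp, were spread over many cells. The 5 richest of the 174 cells, which would hold 2.87% if all cells were equal, held 8.84% of the Dcn UMIs in WT and 10.8% in KO. For Bgn they held 12.7% and 13.3%, for Lum 10.6% and 13.8%, and for Prelp 10.9% and 9.85%. It took 45 WT and 36 KO cells to reach 50% of the Dcn UMIs. Cells were ranked by UMIs of the gene, not scaled for depth. The 5 richest in Dcn had a median of 22623 UMIs in WT, against 12647.5 over all 174 cells. In KO the medians were 21789 and 14053. The part of depth in these shares was not tested. With the 5 richest cells removed from both libraries, the log2 ratios were -0.89 for Dcn, -0.65 for Bgn, -0.64 for Lum and -0.39 for Prelp.

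Ogn and Fmod rested on few cells. The 5 richest held 36.6% (WT) and 26.1% (KO) of the Ogn UMIs and 62.5% and 47.7% of the Fmod UMIs. The 5 richest cells had median depths of 16416 and 19781 UMIs for Ogn and 17909 and 27595 for Fmod, also above those of all cells. Only 4 WT and 6 KO cells made up 50% of the Fmod UMIs, and 154 and 141 cells had none. Without the 5 richest cells the Fmod log2 ratio went from 0.20 to 0.65, and that of Ogn from 0.00 to 0.22. In each library 1 cell was the richest in both genes. It was stellate-like in WT, with 19 Ogn and 15 Fmod UMIs, and without a subtype in KO, with 11 and 12.

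**Figure D4:**
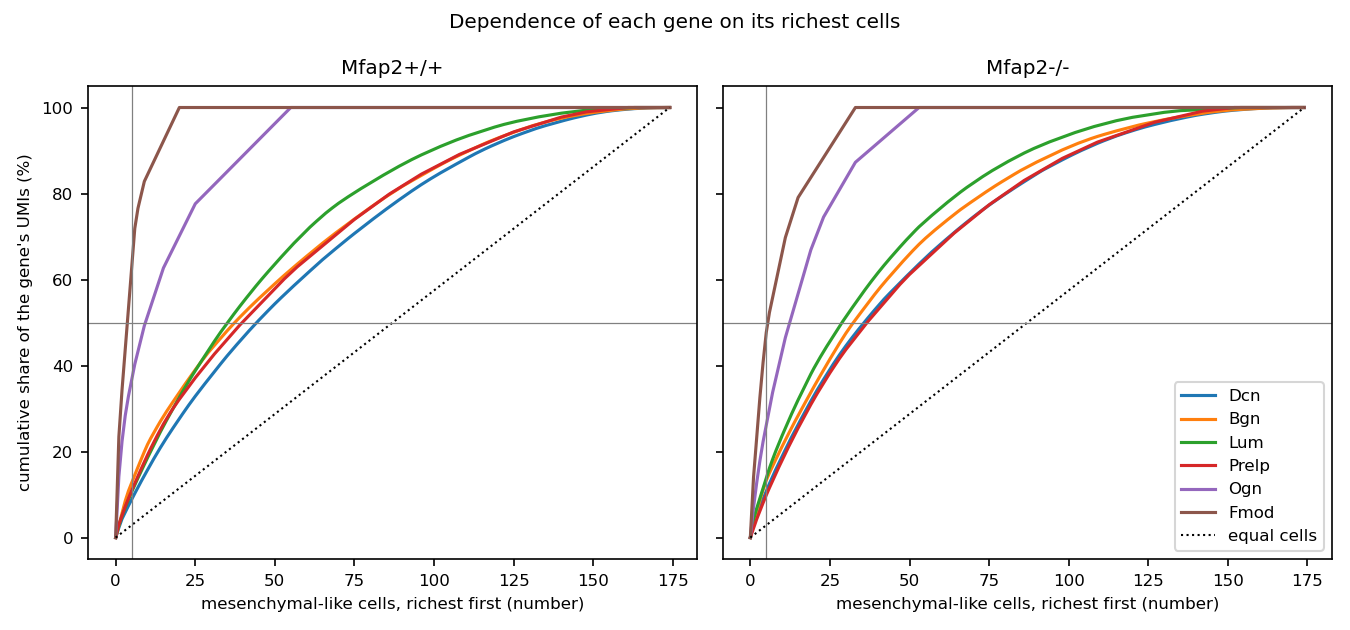
Cumulative share of each gene's UMIs (percent) over the mesenchymal-like cells of a library ordered from richest to poorest; the dotted line stands for equal cells, the grey lines mark 5 cells and 50%. Fmod and Ogn climb steeply, with 62.5% and 36.6% of WT UMIs in 5 cells, while the other genes stay closer to the line.

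The stellate-like cells held most of the UMIs of these sparse genes but at a low level. Ogn was at 49.7 CPM in WT and 56.2 CPM in KO stellate-like cells, and Fmod at 19.0 and 23.3 CPM. In the portal fibroblast-like cells, Ogn was at 468 CPM (24 UMIs in 4 WT cells) and 135 CPM (4 UMIs in 2 KO cells). Fmod was at 234 CPM there in WT (12 UMIs) and 101 CPM in KO (3 UMIs). In the cells without a subtype, Fmod was at 269 CPM (6 WT cells) and 308 CPM (12 KO cells), and Ogn at 165 and 205 CPM. Dcn ran the other way, with 6351 and 5059 CPM in portal fibroblast-like cells and 3202 and 2585 CPM in cells without a subtype, below the stellate-like level in both libraries. These subtypes hold 2 to 12 cells, and their values describe those cells only.

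Outside the mesenchymal class, Bgn stood furthest above the level of B-like cells. In endothelial-like cells (1061 WT, 1450 KO) it was at 337 CPM in WT and 216 CPM in KO, 10.1- and 10.7-fold the level of B-like cells. Its ratio was again lower in KO (log2 -0.64, interval -0.73 to -0.55). At 2000 UMIs per cell, Bgn was found in 40.1% of 785 WT and 26.0% of 1211 KO endothelial-like cells. Prelp was at 16.4 and 20.2 CPM there (log2 0.29, interval -0.06 to 0.68), 3.53- and 3.62-fold the B-like level. Dcn was at 64.4 and 41.1 CPM, at the level of the leukocyte classes. Of the 4 genes with at least 20 UMIs in these cells, 2 (Bgn and Dcn) were lower by at least 1.5-fold and 0 higher, beside 13.2% lower and 10.8% higher among 13530 genes.

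Endothelial-like cells were split after the values were seen, by Vwf, a gene of larger vessels, and Stab2, a gene of liver sinusoids and itself a gate marker. Cells with Vwf and no Stab2 (77 WT, 51 KO) had Bgn at 773 CPM in WT and 741 CPM in KO, while cells with Stab2 and no Vwf (659 WT, 1163 KO) had it at 204 and 145 CPM. The cells with Vwf were higher in Bgn in both libraries. Prelp followed the same order, at 36.5 and 44.6 CPM in cells with Vwf and at 11.0 and 15.4 CPM in cells with Stab2. Dcn did not, at 58.8 and 37.5 CPM against 64.8 and 41.8 CPM, near the level of the leukocyte classes. The part of this makeup in the endothelial ratio of Bgn was not tested.

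In cholangiocyte-like cells, the epithelium of the bile ducts, Bgn was at 104 CPM in WT (126 UMIs in 91 cells) and 34.6 CPM in KO (33 UMIs in 66 cells). The log2 ratio was -1.56 (interval -2.19 to -1.03), and the KO level lay near the leukocyte classes. A Bgn UMI was found in 35 WT and 15 KO cells, and the part of the richest of them in the ratio was not tested. At 2000 UMIs per cell the shares were 11.8% (8 of 68 WT cells, interval 5.22% to 21.9%) and 7.69% (4 of 52 KO cells, interval 2.14% to 18.5%), whose intervals overlap, so no difference in the share was detectable at that depth. The B-like shares were 6.52% and 4.08%. Bgn averaged 0.147 UMIs per cholangiocyte-like cell in WT and 0.0962 in KO at that depth. Prelp was at 12.4 CPM (15 UMIs) and 23.1 CPM (22 UMIs) in these cells, with an interval that holds 0. Ogn was at 0 in WT endothelial-like cells, where 3 UMIs would be 0.558 CPM, and Fmod was at 0.931 and 0.568 CPM. Plasmacytoid dendritic-like cells had Dcn at 155 CPM in WT, from 32 UMIs in 28 cells, and at 33.1 CPM in KO (82 cells). Bgn was at 72.5 and 20.1 CPM there. The part of the richest of these cells in the WT values was not tested.

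Across mesenchymal-like cells, correlations of log(1 + UMIs per 10000) are given as descriptions over 174 cells of 1 library, which share their library and differ in depth. Dcn went with Bgn (r 0.28 in WT, 0.55 in KO), Lum (0.20, 0.51) and Prelp (0.33, 0.56). Fmod went against Dcn (-0.28, -0.12). It went with the fibrillar collagen genes Col1a1 (0.40, 0.27), Col1a2 (0.38, 0.29) and Col3a1 (0.31, 0.33). Dcn gave -0.27 and -0.10 with Col1a1 and -0.31 and -0.02 with Col1a2, but 0.19 and 0.26 with Col3a1. Fmod also ran against the stellate cell marker Reln (-0.39, -0.34). With the log of a cell's UMIs, r was -0.02 and 0.26 for Dcn, 0.16 and 0.45 for Lum, and 0.40 and 0.33 for Prelp. Fmod and Ogn were at 0 in most cells, so their r values rest on the few cells with a UMI.

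**Figure D5:**
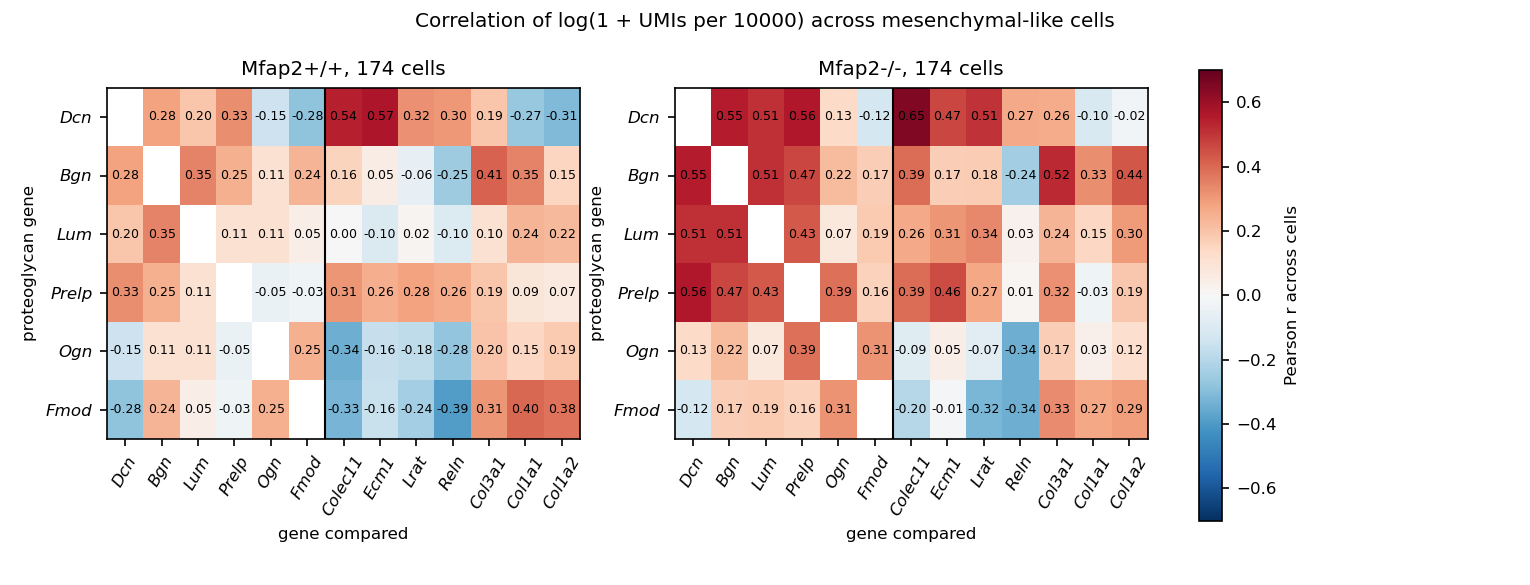
Pearson r of log(1 + UMIs per 10000) across the 174 mesenchymal-like cells of each library, between the proteoglycan genes (rows) and each other, stellate cell markers and collagen genes (columns). Among the columns Dcn is highest with Ecm1 in WT (0.57) and with Colec11 in KO (0.65), and Fmod is negative with Reln and positive with Col1a1.

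The genes most like each member among 6243 candidates differed between members. Dcn came closest to Cxcl12, a chemokine (r 0.55 in WT, 0.67 in KO), the stellate marker Colec11 (0.54, 0.65) and the matrix protein gene Tgfbi (0.53, 0.60). Bgn was closest to the collagen-binding Sparc (0.63, 0.63), the ribosomal protein gene Rps12 (0.59, 0.59) and Igfbp7 (0.59, 0.71). For Lum the nearest were 3 ribosomal protein genes, Rps10, Rpsa and Rps27a (0.44 to 0.51). Prelp was nearest to the complement inhibitor gene Serping1 (0.53, 0.55), the extracellular superoxide dismutase gene Sod3 (0.45, 0.43) and the elongation factor gene Eef2 (0.38, 0.46). Ogn was nearest to Dpep1 (0.54, 0.48), Fmo2 (0.44, 0.54) and S100a6 (0.40, 0.39). Fmod was nearest to Gas6, a ligand of TAM receptors (0.57, 0.52), Mfap4 (0.61, 0.50) and Fmo2 (0.45, 0.45), which it shares with Ogn. Mfap4 is on the portal fibroblast marker list. It had UMIs in 38 WT and 51 KO mesenchymal-like cells, most of them not portal fibroblast-like. Colec11, a gate marker, was at 1136 CPM in WT and 692 CPM in KO, and Ecm1, a gate marker looked up after its correlation with Dcn was seen, at 683 and 328 CPM. The other 6 stellate markers did not move one way: Lrat was at 490 and 421 CPM, Vipr1 at 130 and 86.6, Hand2 at 229 and 158, Ngfr at 35.7 and 33.8, Reln at 1370 and 1409, and Hgf at 950 and 1370 CPM. The part of such marker levels in the Dcn ratio was not tested.

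The rest of the pathway was described by lists of genes in the mesenchymal-like cells, beside the median log2 ratio of 0.13 over all genes. Of 12 other small leucine-rich proteoglycan genes, 3 had at least 20 UMIs: Tsku was lower in KO (26 and 6 UMIs, log2 -2.17), and Podn (-0.32) and Ecm2 (0.55) were within 1.5-fold. Kera and Epyc, the neighbours of Lum, had 0 UMIs in both libraries, and Aspn and Omd, the neighbours of Ogn, at most 7. Of 24 measured genes of chain assembly and sulphation, 3 were higher, 1 lower and 20 within 1.5-fold (median 0.12), beside 18.9% higher and 10.1% lower over all genes. The higher genes were Xylt1, which starts the chain (log2 0.80, 106 and 217 UMIs), the chondroitin sulphotransferase gene Chst11 (0.82, 316 and 654 UMIs) and the epimerase-like gene Dsel (0.93, 26 and 59 UMIs). Csgalnact1 was lower (-1.03), on 13 and 7 UMIs. With the median-of-ratios scaling the higher genes were unchanged and 6 were lower, among them Chpf, Fam20b and B4galt7. Over all genes 15.7% were lower and 12.8% higher under that scaling. Chpf had 49 and 40 UMIs, Fam20b 31 and 24 and B4galt7 27 and 22, and their unscaled intervals hold 0.

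Of 18 genes of the bound matrix partners, 3 were higher and 0 lower (median 0.28): Col5a2 (log2 0.63), Tnxb (0.65) and Ccn2 (0.67), the connective tissue growth factor gene. Over all genes 18.9% were higher and 10.1% lower. With the median-of-ratios scaling, under which 12.8% of all genes were higher and 15.7% lower, these 3 were within 1.5-fold. The collagen I and III genes, whose proteins are bound by decorin, lumican and fibromodulin, were within 1.5-fold, with Col1a1 at 1085 CPM in WT and 1541 CPM in KO (log2 0.51) and Col3a1 at 1775 and 2239 CPM (0.33). Col1a1, Col1a2 and Col3a1 are markers of the gate. The collagen VI genes, bound by biglycan and decorin, were not alike: Col6a1 had a log2 ratio of -0.56, Col6a2 of -0.51 and Col6a3 of 0.48, and with the median-of-ratios scaling Col6a1 (-0.70) and Col6a2 (-0.64) passed 1.5-fold lower. Of 9 measured receptor genes, 2 were higher and 0 lower (median 0.23), beside the same 18.9% and 10.1% over all genes. Egfr, a receptor bound by decorin, was at 206 CPM in WT and 401 CPM in KO (log2 0.96), and Kdr had 12 and 23 UMIs (0.66) and is an endothelial marker. With the median-of-ratios scaling only Egfr stayed past 1.5-fold. The biglycan receptor genes Tlr2 (0.23) and Tlr4 (0.36) were within 1.5-fold.

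Of 12 measured genes of processing and degradation, 3 were higher, 1 lower and 8 within 1.5-fold (median -0.10, also with Mmp3 at its bound), beside 18.9% higher and 10.1% lower over all genes. Htra1, a protease gene, had a log2 ratio of 0.81 (172 and 354 UMIs) and Pcolce2 of 0.93 (12 and 28 UMIs). Mmp3 had 0 UMIs in WT and 26 in KO, at least 7.42-fold higher against a floor of 3 UMIs in the WT library, all of them in 5 cells or fewer. Gzmb, a lymphocyte protease gene, had 26 and 4 UMIs (-2.66), and with the median-of-ratios scaling Mmp9 joined it among the lower genes. Under that scaling 15.7% of all genes were lower and 12.8% higher. Bmp1, which trims the biglycan precursor, was within 1.5-fold (-0.21).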

How the data were processed

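Droplet single-cell RNA sequencing (10x Chromium 3′ v3 chemistry, per the labels) gave 1 library from Mfap2+/+ and 1 from Mfap2-/- mice. The values are the authors' deposited counts, whole numbers of UMIs for each gene and barcode. The matrices were written by Cell Ranger 7.0.1, per the file headers, while Cell Ranger 3.1.0, Seurat and mm10 are listed in the submitters' processing notes. The annotation and the treatment of intronic reads are not given in the sources used here.

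Barcodes were dropped below 200 genes or above 20% mitochondrial UMIs, and the highest Scrublet scores (scanpy 1.11.5) were removed as doublets at 0.8% per 1000 cells. A cell took a class when at least 3 of that class's 8 markers had a UMI and at least 2 more than of any other class. The erythroid list had 7 usable markers. No proteoglycan gene was a marker. Within the mesenchymal class, a subtype needed at least 2 markers and more than of any other subtype. UMIs were summed per class and scaled to a class total of 1000000 UMIs (CPM). Log2 ratios are Mfap2-/- over Mfap2+/+ with 1 UMI added to each sum. Counts of genes used those with 20 or more UMIs in the class, over both libraries, and past the fold means at least 1.5-fold. For each of the 6 genes, the 3 other genes with the highest correlation were named, ranked by the lower r of both libraries among genes with a UMI in at least 20% of mesenchymal-like cells. Of the gene lists, counts are given and the genes past the fold are named.

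No test between genotypes was possible, since each has 1 library, and p-values are left out. Intervals at 95% (exact Poisson for CPM, Clopper-Pearson for shares, exact conditional for ratios) cover counting error only, and a count of 0 carries the limit that 3 counts would set. The interval step was run on simulated Poisson counts, the model it assumes, so that run does not cover UMIs spread unevenly between cells. The genes, lists and markers were chosen with earlier results of these data known. Positions and overlaps come from GENCODE M21 (GRCm38), which holds 32158 (99.6%) of the 32285 identifiers. The alternatives covered the gates, the cell filters, doublets, the scaling, the depth and the richest cells.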

Additional observations from a re-analysis of the deposited data

How the results depend on the processing

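The 14 alternatives kept the direction of the Dcn, Bgn, Lum and Prelp ratios. Dcn ranged from -0.99 to -0.81 on the log2 scale and was past 1.5-fold in all 14. Bgn ranged from -0.74 to -0.52 (past it in 12), Lum from -0.76 to -0.54 (in 10) and Prelp from -0.51 to -0.32 (in 0). Ogn ranged from -0.19 to 0.23, below 0 in 6 of 14, and Fmod from 0.07 to 0.75, past 1.5-fold higher in 4. The summed ratio of -0.75 was -0.71 with a margin of 3 markers, -0.86 as a mean of per-cell values, -0.78 with cells thinned to 2000 UMIs, -0.88 by the median of ratios and -0.79 without the 5 richest cells. The number of genes lower by at least 1.5-fold was 1 with no doublets removed and 2 under 4 others (a margin of 1 or 3 markers, markers without collagens, cells thinned to 2000 UMIs), against 3. Thinned to 1000 UMIs, Lum was found in 76.4% of WT and 49.7% of KO cells, and thinned to 5000 UMIs in 94.6% and 85.7%. The cause of these shifts was not tested. Clusters in place of gates gave 241 WT and 269 KO cells, which held 174 and 173 of the gated cells. No paired analysis was possible because each genotype has 1 library. Depth limits Ogn and Fmod most, with 64 to 157 UMIs per library, and no interval covers variation between animals.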

Other observations

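Cells with at least 3 mesothelial markers numbered 3 in WT and 5 in KO, with medians of 77779 and 107700 UMIs. They had Bgn at 809 and 72.6 CPM, and all Lum UMIs in the WT cells came from 1 cell. Mesenchymal-like cells had at most 3 mesothelial markers in WT and at most 2 in KO. At least 1 of these WT cells was thus also mesenchymal-like and none of the KO cells was, so the Bgn levels are not compared.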
